A study of Drosophila melanogaster with 4 samples.

Results

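YHet is the assembled heterochromatic sequence of the Drosophila melanogaster Y chromosome, 347038 bp long on FlyBase release 5 per the file headers. It was cut from position 1 into 347 full windows of 1 kb, of 139706 such windows over the 13 sequences that carried clusters. All its clusters in the 3 deposited lists were taken as well. Replicate 1 gave 50 of its 5083 clusters, replicate 2 gave 42 of 4595, and the list of the whole series, called the combined list here, gave 29 of 7929. The rule uses position alone and no measured value, although the sequence was picked with earlier results of these data known.

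The lists come from chromatin immunoprecipitation with sequencing (ChIP-seq) of trimethylated lysine 9 of histone H3 (H3K9me3) in head nuclei of wild-type Oregon-R adults. The labels place the flies in population cages with adults kept over 22 days, give the stage as mixed adult, and show the same strain, genotype, stage and tissue for all samples. The study held 4 samples, 2 ChIP libraries and 2 inputs, the inputs being sonicated chromatin without selection. The titles of all 4 carry the words "H3K9me3 new lot". Each ChIP library has its own list, and the inputs have none. The labels do not tie the replicates to separate cages or preparations, and their spread may be that of the technique alone. Sex is not given. Only males carry a Y, so the share of nuclei behind the YHet values is unknown.

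The fly Y is almost wholly heterochromatic and is built mainly of satellite repeats and transposable element remains. Its few protein-coding genes include male fertility factors with very large introns that are transcribed in the male germ line. RefSeq lists kl-2, kl-3, kl-5, ORY and CCY among 24 protein-coding genes on the Y of release 6. Those names were not placed on YHet here, since the builds differ. H3K9me3 is laid down by the methyltransferases Su(var)3-9 and Eggless in flies, and it is bound by heterochromatin protein 1a (Su(var)205), which packs pericentric and repeat-rich chromatin. The Y is known as a large reservoir of such chromatin in somatic nuclei of males.

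YHet alternated between marked blocks and open stretches along its whole length. Clusters covered 57.6% of it in replicate 1 and 54.7% in replicate 2, or 56.1% ± 2.05 (SD, n = 2 ChIP libraries, as for other values with ±). The combined list covered 70.9%. All 3 lists shared 164 kb, which was 47.4% of the sequence, and 100.5 kb (28.9%) lay in no list. The first cluster of the combined list began at position 39 and its last ended at 345144, so marked blocks reached close to both ends of the assembled sequence.

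By window, replicate 1 had 147 fully covered windows, 87 in part covered and 113 open ones, where open means that no base lay in a cluster. Replicate 2 had 144, 77 and 126, and the combined list had 215, 54 and 78. At least 50% of a window was covered in both replicates in 171 windows (49.3%), against 14.1% of all windows of the 13 sequences. Both replicates left 95 windows (27.4%) open, against 77.5% of all windows, and both covered 112 (32.3%) in full, against 11.1%. YHet thus held more cluster sequence per length than the series as a whole, which is mostly long euchromatic arm. It was less often fully covered in both replicates than the 5 autosomal and X heterochromatic sequences together (2LHet, 2RHet, 3LHet, 3RHet and XHet, called Het here), where the share was 62.0% of 8932 windows. On XHet alone it was 28.9%, below that of YHet. No test over samples can reach the usual threshold with 2 libraries, where an exact sign-flip test allows a p of 0.5 at the lowest. Differences are therefore set against the SD between the replicates or, for shares taken over both, given as descriptions.

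**Figure D1:**
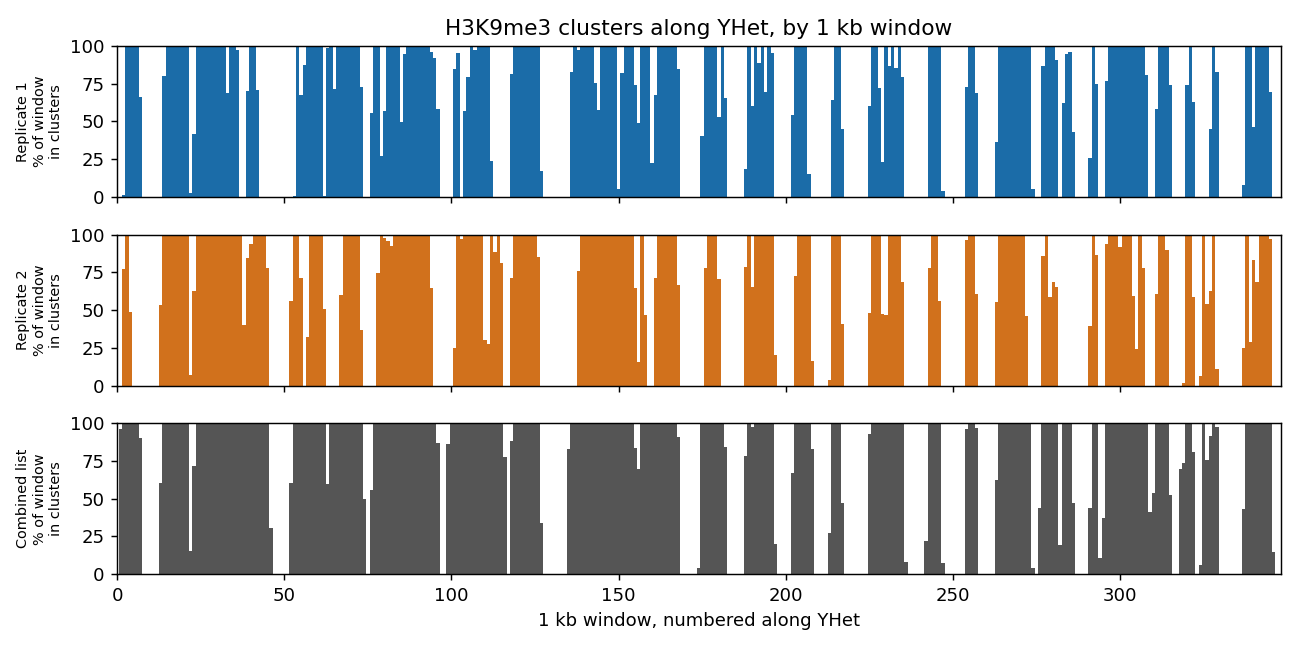
Percent of each 1 kb window of YHet inside H3K9me3 clusters (y axis, 0 to 100%) against the number of the window along the sequence (x axis), for replicate 1, replicate 2 and the combined list. Covered blocks and open stretches alternate in all 3 rows, and the open stretches lie closest together in the windows after number 168.

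The runs covered in both replicates were short. Successive windows at least 50% covered in both formed 35 runs with a median of 4 windows. The longest run was 13 windows (23001 to 36000), followed by 12 windows (137001 to 149000). Runs of 9 windows lay at 85001 to 94000, 117001 to 126000 and 295001 to 304000. In the combined list the same rule gave 24 runs with a median of 8 windows and a longest run of 34 windows (134001 to 168000).

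The longest combined clusters lay in the first part of the sequence. The longest, 23.0 kb with a score of 1.80, ran from 22283 to 45306, and replicate 1 covered 71.6% of it and replicate 2 covered 93.8%. The next, 20.7 kb (134172 to 154835, score 1.36), was 85.9% and 84.2% covered. That of 20.4 kb (75444 to 95868, score 1.48) was 89.6% and 79.5% covered. These 3 reached 20 kb, and the replicates had no cluster of that width.

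The other 7 of the 10 longest combined clusters were between 10.7 and 17.6 kb. With the share in replicate 1 first and that in replicate 2 second, these were the 10.7 kb cluster from 262375 to 273040 (score 1.90), at 97.5% and 84.5%, and the 13.8 kb cluster from 294626 to 308409 (score 1.69), at 91.2% and 76.0%. The 11.0 kb cluster from 224074 to 235081 (score 1.23) was 82.4% and 82.7% covered. The 12.6 kb cluster from 155305 to 167910 (score 1.43) was 89.1% covered by replicate 1 and 71.5% by replicate 2. The remaining ones were that of 17.6 kb from 98141 to 115777 (score 1.47) at 53.2% and 70.8%, that of 11.0 kb from 62455 to 73497 (score 1.17) at 90.5% and 54.0%, and the one from 51394 to 62049 (score 1.23) at 71.3% and 76.0%. The cluster from 62455 was the least evenly covered of the 10.

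Within the replicates the longest clusters were partly different stretches. Replicate 1 had its longest at 12.6 kb (295235 to 307806, score 1.93), then 10.4 kb (262639 to 273052, score 1.93), 9.54 kb (22582 to 32120, score 2.51), 8.99 kb (117185 to 126171, score 1.76) and 8.91 kb (85053 to 93963, score 1.93). Replicate 2 had 17.4 kb (137240 to 154645, score 1.48), 15.0 kb (22376 to 37403, score 1.98), 12.6 kb (81079 to 93644, score 1.65), 9.02 kb (262448 to 271463, score 1.97) and 8.61 kb (12466 to 21073, score 1.77). Each of these 10 clusters was at least 81.9% covered by the other replicate, and the 9.54 kb cluster of replicate 1 was wholly inside a cluster of replicate 2. This stretch, 22582 to 32120, was the longest unbroken one shared by all 3 lists.

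Replicate clusters on YHet were mostly a few kb wide. Replicate 1 had a median of 3368 bp, with quartiles of 1974 and 4922 bp and a range of 1301 to 12572 bp. Replicate 2 had a median of 3473 bp, with quartiles of 2006 and 5138 bp and a range of 1331 to 17406 bp. For the combined list the median was 6865 bp, with quartiles of 3744 and 11008 bp and a range of 1335 to 23024 bp. The combined list had 10 clusters of at least 10 kb, and the replicates had 2 and 3. At the other end, 13 clusters of replicate 1, 10 of replicate 2 and 2 of the combined list were under 2 kb. The narrowest YHet cluster of replicate 1, at 1301 bp, had the smallest width of its whole list.

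**Figure D2:**
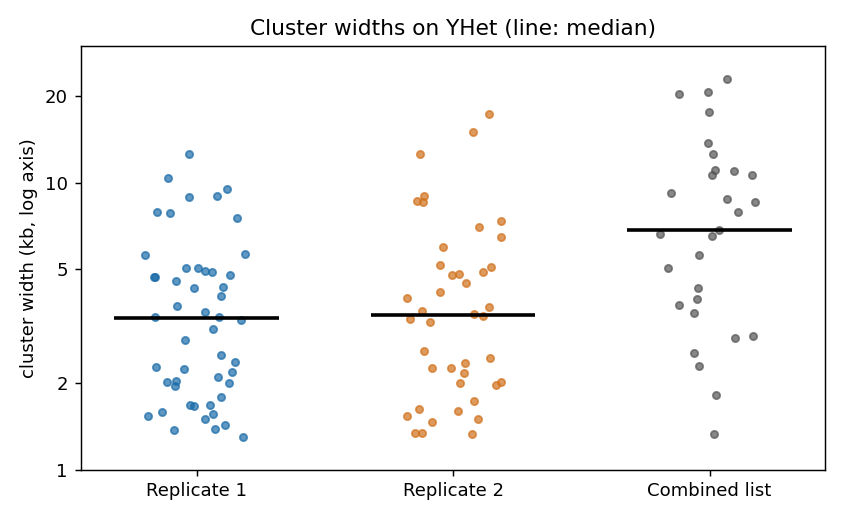
Widths of the YHet clusters in kb (log axis) in replicate 1 (50 clusters), replicate 2 (42) and the combined list (29). Each point is a cluster and each line a median; the replicate medians, 3368 and 3473 bp, lie close together and that of the combined list, 6865 bp, lies above them.

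Many stretches that formed 1 cluster in the combined list were split in the replicates. Of the 29 combined clusters, 12 held several clusters of replicate 1, 9 held several of replicate 2, and 14 did so in at least 1 of them. Another 13 held exactly 1 cluster of each. Intervals of at most 500 bp between neighbouring clusters came to 15 in replicate 1 and 8 in replicate 2, while the combined list had 5. Where replicate clusters up to 1 kb apart were joined, their number fell from 46 ± 5.66 to 30.5 ± 0.71, near the 29 of the combined list, and the median width was 5345 bp ± 956. The joined clusters covered 57.5% ± 2.32 of YHet, still below the 70.9% of the combined list. An example of a split stretch is the block from 137240 to 154645. Replicate 2 gave it as 1 cluster, while replicate 1 had clusters from 137162 to 142755, 143425 to 149050 and 150178 to 154739 on it. The combined cluster around it also held a replicate 1 cluster from 135171 to 137135, outside the block, that replicate 2 did not meet.

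Open stretches on YHet were frequent and short. Neither replicate had a cluster in 41 intervals, which had a median of 2196 bp and summed to 122 kb. Of these, 13 were at least 5 kb long and held 70.4% of the open length. The longest ran for 9.00 kb (126172 to 135170), and the combined list covered 12.9% of it. Next came an interval of 7.95 kb (216449 to 224396), 4.38% covered in the combined list, and others of 7.92 kb (328830 to 336750; 4.14%) and 7.21 kb (234792 to 241999; 7.08%). The interval of 6.99 kb from 246042 to 253035 was 0.515% covered in the combined list, the least of the 8 longest. The others of these 8 measured 6.75 kb (167846 to 174595; 10.4% covered there), 6.66 kb (44781 to 51441; 8.62%) and 5.81 kb (207162 to 212966; 15.6%). Assembly gaps, repeats and mappability on YHet were not examined here, so an open stretch cannot be read as unmarked chromatin.

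The long open stretches were not spread evenly. Of the 13 intervals of at least 5 kb, 8 followed each other from 167846 to 262447, a span of 94.6 kb, with centres 10.0 to 18.0 kb apart. Successive centres were counted together when under 20 kb apart. Between them stood marked islands found in both replicates, such as the 3.74 kb combined cluster from 212730 to 216473, that of 4.30 kb from 241780 to 246077 and that of 3.93 kb from 253041 to 256970. These islands were named after their values were seen. Replicate 1 covered 82.6%, 94.0% and 87.0% of them, and replicate 2 covered 92.0%, 77.7% and 90.7%. By contrast, the 50 kb from 50001 to 100000 held the centre of none of these intervals.

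Coverage was also taken by 50 kb segment. The first 3 segments were 61.4% ± 4.90, 66.6% ± 8.46 and 65.4% ± 3.22 covered. The fifth segment, 200001 to 250000, was the least covered in every list, at 41.8% in replicate 1 and 41.5% in replicate 2, with 51.1% for the combined list. The fourth, sixth and seventh were 56.5% ± 4.15, 51.8% ± 6.84 and 49.0% ± 2.90 covered. The fifth segment lay below the first 3 by more than the SD of any of them. The first 3 differed from one another by less than the largest of their SDs. The combined list fell from 88.0% in the second segment to 51.1% in the fifth and stood at 65.9% in the last.

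**Figure D3:**
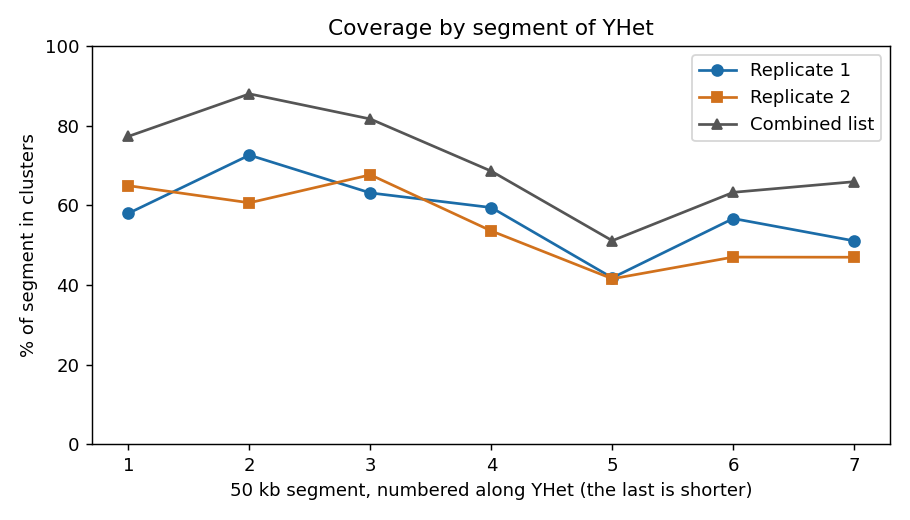
Percent of each successive 50 kb segment of YHet inside clusters (y axis, 0 to 100%) in replicate 1, replicate 2 and the combined list; the seventh segment is shorter. The fifth segment is the lowest in all 3 lists (41.8%, 41.5% and 51.1%), and the replicates are farthest apart in the second (72.6% and 60.6%).

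The replicates shared most of the length that either covered, and most of the unshared length adjoined a shared stretch. They shared 164 kb of the 225 kb that either covered (Jaccard index 0.730, the shared length over that covered in either). Replicate 2 held 82.3% of the cluster length of replicate 1, and replicate 1 held 86.6% of that of replicate 2. A window was at least 50% covered in 1 replicate only in 62 cases (17.9%), against 4.97% of all windows of the 13 sequences, most of which were covered in neither. Replicate 1 was the one covered in 37 of them (10.7%, against 2.59% of all windows) and replicate 2 in 25 (7.20%, against 2.38%). Of the 62 windows, 37 (59.7%) stood next to a window covered in both, and 20 had no other window of the 62 beside them. Windows covered in both formed 35 runs, so many other windows flank one too. The same share was not taken over those, and the 59.7% does not set the 62 apart. A window went from fully covered in 1 replicate to open in the other in 14 cases, 9 with replicate 1 covered and 5 with replicate 2.

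Counted by base, replicate 1 alone of the 2 covered 35.4 kb in 46 stretches, and replicate 2 alone covered 25.4 kb in 46. In replicate 1, 32 of these stretches (20.9 kb) extended a shared block at 1 end, 8 (3.92 kb) bridged shared stretches and 6 (10.6 kb) touched no shared base. In replicate 2 the numbers were 32 (17.0 kb), 12 (4.76 kb) and 2 (3.57 kb). Stretches at 1 end of a shared block, whatever their length, thus held 59.1% of the unshared length in replicate 1 and 67.1% in replicate 2. Those touching no shared base held 29.9% in replicate 1 and 14.1% in replicate 2.

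The longest unshared stretches were of a few kb. Replicate 1 alone covered 3.18 kb (3488 to 6665), the right part of the first block, where replicate 2 stopped. It was also alone from 62015 to 64520 (2.51 kb), from 135171 to 137135 (1.97 kb), from 75443 to 77253 (1.81 kb) and from 157471 to 159225 (1.76 kb). Replicate 2 alone covered 3.08 kb (41706 to 44780), at the right end of the longest combined cluster. Further such stretches were 112842 to 114813 (1.97 kb), 323938 to 325539 (1.60 kb), 51442 to 52994 (1.55 kb) and 111242 to 112725 (1.48 kb). The longest group of successive windows covered in 1 replicate only, 6 windows, ran from 109001 to 115000, and the next, 5 windows, from 61001 to 66000.

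Few clusters lacked a counterpart. At an overlap of at least 1 bp, replicate 2 met 44 of the 50 clusters of replicate 1, and replicate 1 met 40 of the 42 clusters of replicate 2. The 8 clusters without one were narrow, from 1391 to 2506 bp. Their median widths were 1615 bp in replicate 1 and 1787 bp in replicate 2, against 3628 and 3535 bp for those with a counterpart. A wide cluster has more room to overlap another, so this difference does not rank clusters by repeatability. Clusters covered 57.6% of YHet in replicate 1 and 54.7% in replicate 2, so an overlap of 1 bp is easily met. The counts of 44 and 40 therefore do not measure agreement. Each of the 8 lay at least in part in the combined list.

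Edges of most shared blocks lay close together. Over the 26 combined clusters found in both replicates, the outermost starts of the replicates differed by a median of 254 bp and their outermost ends by 341 bp. Starts differed by over 1 kb in 4 of the 26 and ends in 9, and the largest differences were 4388 and 3572 bp. The combined cluster reached beyond both replicates at its start in 22 of 26 and at its end in 22 of 26. It began a median of 357 bp before replicate 1 and 361 bp before replicate 2, and it ended 237 and 504 bp after them.

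The scores, which are the authors' own value per cluster, lay in the upper part of each file on YHet. Every one of the 121 YHet clusters over the 3 lists scored at or above the median of its file, a median of 0.83 in replicate 1, of 0.89 in replicate 2 and of 0.50 in the list of the series. On XHet 14 of 16, 10 of 14 and 24 of 28 clusters did, and on 2LHet 31 of 33, 24 of 27 and 19 of 20. Sequence U, of unplaced scaffolds, came close to YHet in this, with 1148 of 1169, 1124 of 1144 and 1092 of 1096. In replicate 1 the YHet scores ran from 0.94 to 2.51 with a median of 1.31. In replicate 2 they ran from 0.90 to 3.20 with a median of 1.47, and the combined list had scores of 0.99 to 2.29 with a median of 1.39. The file medians are taken over all sequences, long arms included. In the same order of lists, the YHet medians lay below those of 2LHet (1.69, 1.68 and 1.69) and 2RHet (1.54, 1.68 and 1.59). They also lay below those of 3LHet (1.63, 1.68 and 1.59) and 3RHet (1.52, 1.59 and 1.54). XHet had medians of 1.34, 1.14 and 1.05, and sequence U had higher ones than YHet, at 1.68, 1.72 and 1.61. Paired by largest overlap, 44 clusters of replicate 1 met a replicate 2 cluster, whose score was the higher one in 29. The pairs held 33 distinct replicate 2 clusters, so some counted more than once. Over the 26 combined clusters found in both replicates, the top score was higher in replicate 2 in 16 and in replicate 1 in 10. Over the 44 pairs the median difference, replicate 2 minus replicate 1, was 0.15, and single differences ran from -0.76 to 0.66.

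Some of the highest scores sat on narrow clusters that the lists did not share. The top score of the combined list, 2.29, belonged to a 1335 bp cluster (317301 to 318635) that neither replicate had. The second, 2.13, belonged to an 1820 bp cluster (323939 to 325758). Replicate 2 covered 88.0% of it with a cluster scoring 3.20, its highest on YHet, and replicate 1 covered 0%. In replicate 1 a 1391 bp cluster (284041 to 285431) scored 2.29 and had no counterpart in replicate 2. The combined cluster around it, 281949 to 285469, scored 1.06. Over the 3 lists 11 YHet clusters scored at least 2, a level chosen after the values were seen, and these 4 were the ones that at least 1 replicate did not meet. The other high-scoring clusters were met by both replicates, such as 339637 to 344694 (score 2.45 in replicate 1, 93.8% covered by replicate 2) and 299914 to 303592 (score 2.16 in replicate 2, 100% covered by replicate 1). The next scores of the combined list were 1.92 (241780 to 246077), 1.90 (262375 to 273040) and 1.80 (22283 to 45306), all found in both replicates.

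**Figure D4:**
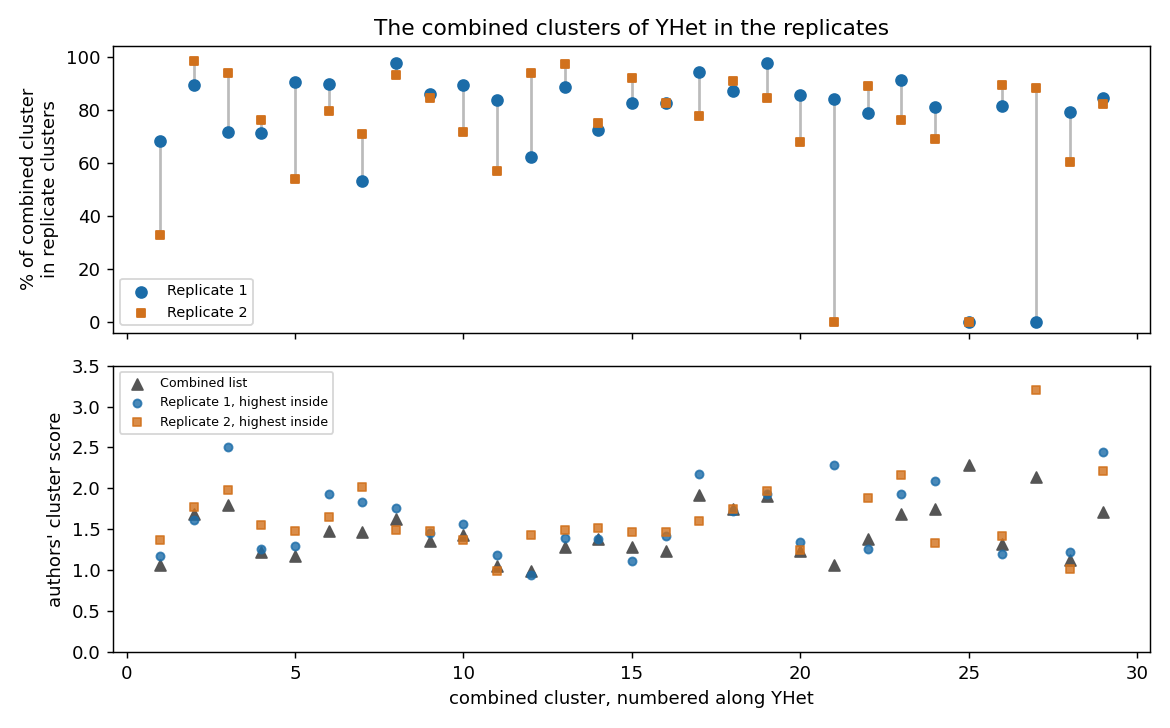
The 29 combined clusters of YHet in order along the sequence (x axis). The upper panel gives the percent of each that replicate 1 (circles) and replicate 2 (squares) covered, and the lower panel the authors' score of the combined cluster (triangles) and of the highest-scoring replicate cluster overlapping it. Clusters 21, 25 and 27 fall to 0% in at least 1 replicate, and 26 of 29 were found in both.

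The combined list took in nearly everything the replicates called and also covered bases that were in neither. It held 99.7% of the cluster length of replicate 1 and 99.99% of that of replicate 2. No base covered by both replicates was missing from it, and the longest replicate stretch it lacked was 405 bp (62050 to 62454), in replicate 1 only. The next were 218 bp (314526 to 314743) and 12 bp (273041 to 273052), also of replicate 1, and 2 of 6 bp in replicate 2 (187215 to 187220 and 196200 to 196205). Of its 246 kb, 66.8% lay in both replicates, 24.5% in 1 and 8.71% in neither.

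Both replicates met 26 of the 29 combined clusters, replicate 1 alone met 1, replicate 2 alone met 1, and neither met 1. Over the 26, the median share covered was 84.0% in replicate 1 and 80.8% in replicate 2. The replicates were within 10 percentage points of each other in 11 of them and over 20 points apart in 5. The widest gap among the 26 was in the 62455 to 73497 cluster, at 90.5% and 54.0%, followed by the first cluster of the sequence, 39 to 6903, at 68.1% and 32.9%.

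The 62 windows covered in 1 replicate only were all at least 50% covered in the combined list. A further 14 windows (4.03%) were covered there but under 50% in both replicates, against 5.25% of all windows of the series. The part of the combined list in neither replicate came to 21.4 kb in 61 stretches. The longest of these measured 2.02 kb (98141 to 100156) and 1.34 kb (317301 to 318635). Then came 1.19 kb (39 to 1230), 1.06 kb (159226 to 160286) and 0.999 kb (134172 to 135170). All but the second lay at the edge of a longer cluster or between clusters of the replicates. How the combined list was made is not given in the sources used here, so its larger coverage cannot be read as more of the mark.

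YHet was next set beside the other heterochromatic sequences. Its coverage minus that of Het was -13.4 points in replicate 1 and -18.6 points in replicate 2, a mean of -16.0 points ± 3.71. That is over 4 times its SD, though this SD rests on 2 libraries. Het is weighted by length, so 2RHet (3289 kb), 3LHet (2555 kb) and 3RHet (2518 kb) set most of its coverage. XHet was less covered than YHet, by 17.8 points in replicate 1 and 13.1 in replicate 2. Against 2LHet, close to it in length at 369 kb, the difference was -4.01 points in replicate 1 and -10.3 points in replicate 2, a mean of -7.18 ± 4.48, and in the combined list YHet was 0.467 points higher.

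YHet carried 13.3 ± 1.63 clusters per 100 kb in the replicates. Replicate 1 had 14.4 and replicate 2 had 12.1, against 8.95 and 7.32 on 2LHet and 7.84 and 6.86 on XHet. The unplaced scaffolds of sequence U came nearer to YHet, at 11.6 and 11.4, with coverage of 52.7% and 54.3%. In the combined list the order differed, with 8.36 on YHet, 5.42 on 2LHet and 13.7 on XHet. XHet also had the narrower clusters, with medians of 1965 and 2782 bp in the replicates and 2356 bp in the combined list. The longest replicate clusters of YHet, 12.6 and 17.4 kb, were shorter than those of 2LHet (40.7 and 47.7 kb) and XHet (29.8 and 30.3 kb). XHet is nonetheless the shorter sequence at 204 kb. The longest YHet interval open in both replicates, 9.00 kb, was shorter as well, against 57.1 kb on 2LHet and 22.6 kb on XHet. YHet had 0 open intervals of at least 10 kb. On 2LHet 2 such intervals held 65.3% of the open length, and on XHet 4 held 59.1%. The shares of 1 kb windows covered in 1 replicate only were 17.9% on YHet, 11.8% on XHet, 7.88% on 2LHet and 5.96% on Het. The relation of these shares to the higher number of cluster ends on YHet was not tested. They also depend on the windows covered in neither replicate, 32.9% on YHet, 53.9% on XHet and 31.5% on 2LHet. The Jaccard index leaves such stretches out. It was 0.730 on YHet, 0.717 on XHet and 0.881 on 2LHet. Sequence U had a share of 13.5% and an index of 0.774.

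The replicates differed in the opposite direction on YHet and on Het. Replicate 2 minus replicate 1 was -2.90 points on YHet, and it was positive on each of the 5 Het sequences, from 1.80 points on XHet to 3.43 points on 2LHet. YHet was not alone in this: replicate 1 also covered more of each long arm (X, 2L, 2R, 3L, 3R), so that it was higher on 6 of the 13 sequences. Within YHet replicate 1 covered more in 5 of the 7 segments of 50 kb, with the widest gap in the second, at 72.6% against 60.6%. Replicate 2 covered more in the first, by 6.93 points, and in the third, by 4.55 points. With 1 library a side, this difference has no replicate check.

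**Figure D5:**
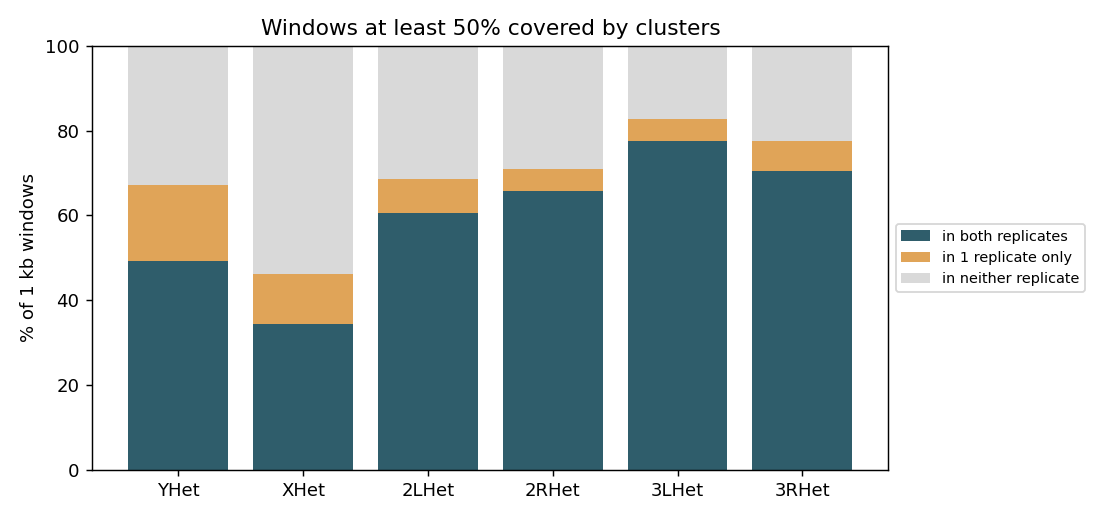
Percent of the 1 kb windows (y axis, 0 to 100%) of YHet and the 5 other heterochromatic sequences that were at least 50% covered by clusters in both replicates, in 1 replicate only or in neither. The share in 1 replicate only is 17.9% on YHet, 11.8% on XHet and 7.88% on 2LHet, and that in neither is 32.9%, 53.9% and 31.5%.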

How the data were processed

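H3K9me3 ChIP-seq clusters from 2 ChIP libraries and the combined list were used; the 2 inputs have no list here. The submitters' processing notes name Bowtie 0.12.7, and per the file headers the build is FlyBase release 5. The caller, its threshold, the part of the inputs and the making of the combined list: not given in the sources used here. The deposited score is the authors' value per cluster, with no stated scale. Distinct scores of a file differed by exactly 1 in 319, 298 and 235 pairs (replicate 1, replicate 2, combined; tolerance 1e-10) and by the natural log or log10 of 2 in 0, as values on a log2 scale would. Scores were used to describe and rank and, among the alternatives below, to filter clusters at the median score of their file. Without read counts the depth is unknown.

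Positions are 1-based and inclusive, and start and end of each cluster are the authors' deposited values. No YHet cluster needed trimming to the end of its sequence. Windows, runs, overlaps and widths were computed with Python 3.11.15 and numpy 2.4.6, intervals for the labels of the alternatives with scipy 1.17.1, and figures with matplotlib 3.10.9. The code was checked on 34 simulated clusters with known answers. The members, gene names, named features and comparisons were chosen with earlier results of these data known. Named were the longest and highest-scoring clusters, the longest open intervals and the longest stretches in a single list. The 50 kb segments, the cut-offs of 5, 10 and 20 kb and the score level of 2 were added after seeing the data. The exact sign-flip test was not run, since it could not pass.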

Additional observations from a re-analysis of the deposited data

How the results depend on the processing

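Each of 8 YHet values was recomputed under the alternatives, 49 values in all, of which 37 were labelled the same, 11 moved and 1 reversed. Coverage, its difference from Het and median width were held to the SD of the replicates, and cluster number to a fixed ratio. The Jaccard index and window shares were held to a 95% Wilson interval over bases or windows. That interval treats neighbours as independent, so these labels do not measure the spread between replicates. Of the 37, 15 came from filters on score or width that left the value as it was, and 8 from leaving out 1 of 2 replicates, where the value always lies within 1 SD of the mean; neither shows stability. Joining clusters up to 1 kb apart gave 30.5 clusters, a median width of 5345 bp, a Jaccard index of 0.743 and 38.6% of windows fully covered in both replicates. The combined list gave a coverage of 70.9%, a difference from Het of -8.78 points, 29 clusters and a median width of 6865 bp. Set against XHet alone, the difference reversed to 15.4 points, since XHet was the least covered sequence of Het. Windows of 2 kb gave 19.7% open and 19.1% fully covered in both replicates, and windows of 500 bp gave 40.2% fully covered; a smaller window is more easily of a single state. The windows where the replicates disagreed made up 14.7% to 20.5% under thresholds of 25% and 75%. Leaving out a replicate gave coverage of 54.7% to 57.6%, a difference from Het of -18.6 to -13.4 points, 42 to 50 clusters and a median width of 3368 to 3473 bp. The Jaccard index and window values need both replicates and have no such value. No paired analysis was possible because the inputs, which share the replicate numbers, have no list. Depth is unknown, and assembly gaps, repeats and mappability limit what an open stretch shows.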
